A study of Mus musculus with 6 samples.

Results

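The leukocyte integrins are the adhesion receptors that white blood cells carry on their surface, and 10 of the 41128 genes in the table, picked by symbol as integrin chains of leukocytes, make up the group described here: *Itgal*, *Itgam*, *Itgax*, *Itgb2*, *Itgb2l*, *Itga4*, *Itga5*, *Itgb1*, *Itgb7* and *Itgae*. RNA of flow-sorted KIT+Gr1+ acute myeloid leukemia (AML) cells from mouse bone marrow (BM) was compared between *Hoxa9*/IRX3 leukemias and *Hoxa9*/MTV leukemias, to ask how IRX3 alters *Hoxa9* leukemia. Both cohorts started from KIT+ BM cells of female CD45.1+ donors that carried a FLAG-tagged *Hoxa9* retrovirus, together with a retrovirus for MYC-tagged human IRX3 in the one cohort and the empty control vector, MTV, in the other. The drug-resistant cells were transplanted with unfractionated CD45.2+ BM into lethally irradiated CD45.2+ C57BL/6 recipients. Each of the 6 libraries came from 1 sick mouse. Mice 1.1, 1.2 and 1.4 belong to the *Hoxa9*/MTV cohort, and mice numbered 3.2, 3.3 and 3.5 to the *Hoxa9*/IRX3 cohort. The strain label of all samples is C57BL/6, while the leukemia cells derive from the CD45.1+ donors. The labels give no age, and the study gives an age range for donors and recipients at transplantation only. It reported a later onset of AML in the *Hoxa9*/IRX3 cohort, so time since transplantation cannot be told apart from IRX3. Each introduced gene was expressed from its own retroviral vector, *Hoxa9* in both cohorts and IRX3 in the *Hoxa9*/IRX3 cohort only. The gate selected viable donor cells for CD45.1, KIT and Gr1, so differences in those surface proteins were limited by the sort. The study reported lower CD45.1 on *Hoxa9*/IRX3 than on *Hoxa9*/MTV leukemia cells.

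An integrin is a heterodimer of 1 alpha and 1 beta chain, and a chain reaches the cell surface only with a partner. The beta2 chain pairs with alphaL as LFA-1, with alphaM as Mac-1 and with alphaX as CD11c/CD18, which let leukocytes hold to ICAMs and to complement-coated particles. The beta1 chain pairs with alpha4 and alpha5, which bind VCAM1 and fibronectin and hold blood progenitors in the marrow. The beta7 chain pairs with alpha4 to bind MAdCAM-1 on gut vessels, and with alphaE to bind E-cadherin.

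RNA levels are the authors' RPKM, a read density corrected for gene length and library size, with the whole span of the gene, introns included, as its length. The libraries held between 7979246 and 9803621 reads as recovered from the table. In the check of the introduced genes, *Irx3* read 0 in every control mouse, while mice 3.2, 3.3 and 3.5 had 15.1, 0.421 and 0.148 RPKM (474, 15 and 4 reads). The introduced IRX3 is human, so these values count only what aligned to mouse *Irx3*. *Hoxa9* was at 340, 363 and 174 RPKM in mice 1.1, 1.2 and 1.4 and at 242, 154 and 221 RPKM in mice 3.2, 3.3 and 3.5, so the cohorts overlapped. *Kit* had means of 2.75 ± 0.332 and 2.15 ± 0.535 RPKM (SD, n = 3 each) in the control and IRX3 cohorts, and *Ly6c2*, which encodes part of the Gr1 epitope, lay between 413 and 844 RPKM in all 6 mice. *Ly6g*, which encodes the other part, rose from 0.108 ± 0.0483 to 1.08 ± 0.373 RPKM (SD, n = 3 each; adjusted p = 0.0205 by limma), a call lost without mouse 1.1, 1.2 or 1.4, and *Ly6c1* was at 0 in mice 1.2, 1.4 and 3.3 and at most at 0.391 RPKM. *Ly6g* was above 0.5 RPKM, the level required for testing, in the *Hoxa9*/IRX3 mice alone.

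Of the 10 integrin chains, 8 were tested, namely those of protein-coding genes above 0.5 RPKM in at least 1 mouse. *Itgb7*, the beta7 chain, fell about 41-fold and was the 1 chain called lower in *Hoxa9*/IRX3 cells, while 0 were called higher. A gene was called at an adjusted p under 0.05 by limma on log2(RPKM + 0.5), with Benjamini-Hochberg adjustment over 9522 tested genes. Of all these genes, 3.52% were called lower and 1.84% higher by the same rule. With a change of at least 2-fold required as well, the shares were 2.03% and 1.1%, and *Itgb7* passed this too. At an unadjusted p under 0.05, 2 chains were lower (*Itgb7* and *Itgb2l*) and 1 was higher (*Itgb1*), where 16% of all tested genes were lower and 8.34% higher. Limma voom on the recovered reads and the study's criterion, an unpaired test of RPKM at an unadjusted p under 0.05 together with a ratio of means over 2, each called *Itgb7* lower and 0 chains higher. Of all tested genes voom called 3.08% lower and 1.89% higher, and the study's criterion 4.72% lower and 2.26% higher. The cohorts did not overlap for 1 chain that was lower, *Itgb7*, and 1 that was higher, *Itgb1*, and they overlapped for the other 6, where 21.6% of all tested genes lay wholly lower and 12.2% wholly higher.

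**Figure D1:**
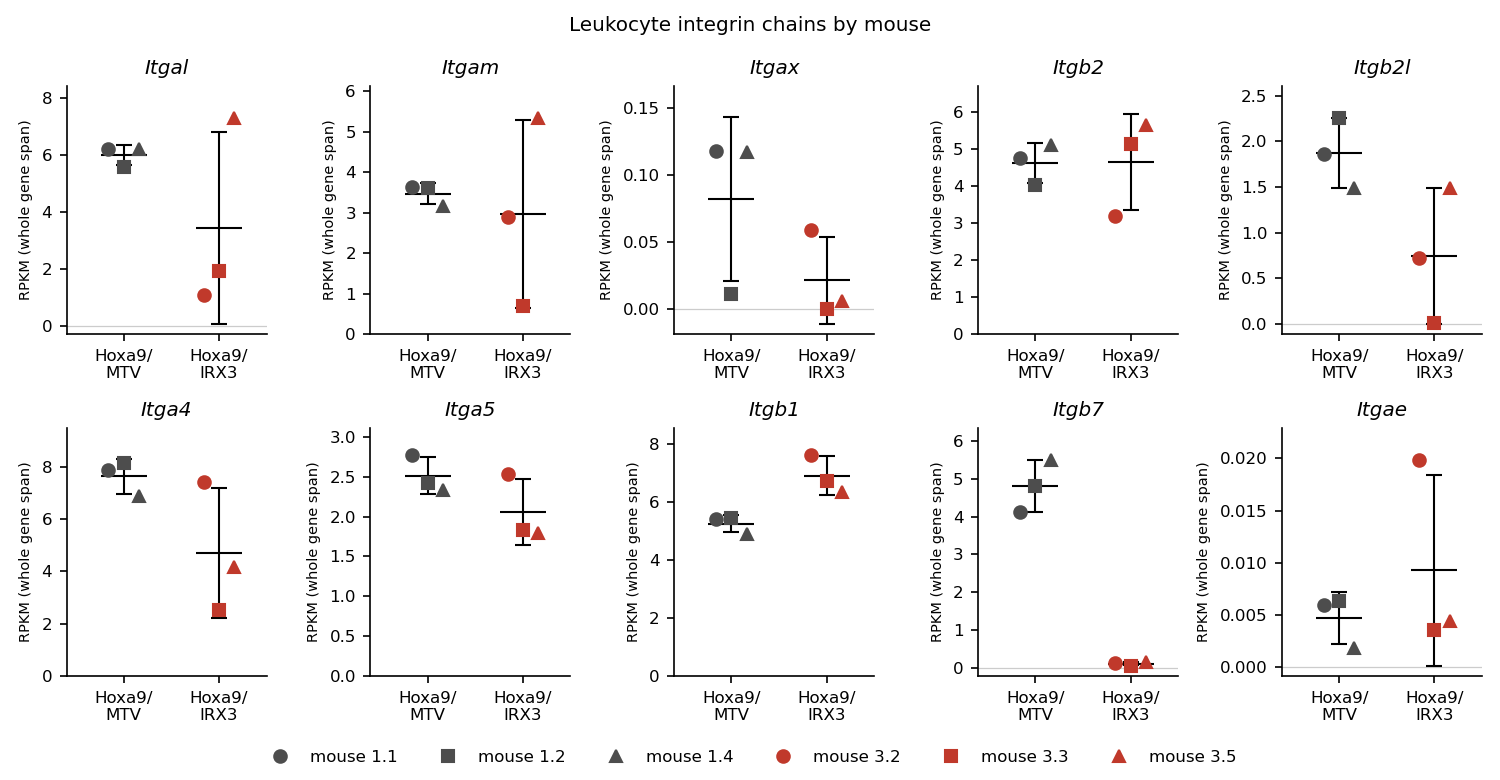
RPKM of each of the 10 integrin chains (y axis, a separate scale for each gene) in 3 *Hoxa9*/MTV mice (gray) and 3 *Hoxa9*/IRX3 mice (red), with 1 symbol per mouse, a horizontal line at the cohort mean and bars of 1 SD. For *Itgb7* the *Hoxa9*/IRX3 mice lie between 0.0576 and 0.149 RPKM, all far under the lowest *Hoxa9*/MTV mouse at 4.12, and for *Itgal*, *Itgam* and *Itgb2l* the *Hoxa9*/IRX3 mice spread widely.

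*Itgb7* (ENSMUSG00000001281; GRCm38, chromosome 15, 102215995 to 102231944, minus strand) was at 4.12, 4.81 and 5.49 RPKM in *Hoxa9*/MTV mice 1.1, 1.2 and 1.4, on 581, 637 and 847 reads. In *Hoxa9*/IRX3 mice 3.2, 3.3 and 3.5 it was at 0.142, 0.0576 and 0.149 RPKM, on 20, 9 and 19 reads. All 3 *Hoxa9*/IRX3 mice were thus near the bottom of the scale, and the lowest *Hoxa9*/MTV mouse stood 27.6-fold above the highest *Hoxa9*/IRX3 mouse. The means were 4.81 ± 0.686 and 0.116 ± 0.0509 RPKM (SD, n = 3 each), a 41.4-fold difference. The change on log2(RPKM + 0.5), which comes out too small for a gene this low, was -3.10 (SE 0.14, 95% interval -3.43 to -2.78, adjusted p = 0.000502 by limma). By p-value *Itgb7* ranked 2 and by size of fall 9 among the 9522 tested genes. It passed the expression filter through the *Hoxa9*/MTV mice alone. In fits that each left out 1 mouse, the change lay between -3.20 and -3.01 and the call held in 6 of 6 fits (adjusted p from 0.0023 to 0.0122). In bulk RNA, fewer cells with *Itgb7* RNA and less *Itgb7* RNA per cell cannot be told apart.

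The promoter of *Itgb7* is shown because it belongs to the 1 chain that was called, and that of *Itgam*, the alphaM chain of Mac-1, for comparison with a chain whose cohorts overlapped. Both are RefSeq sequences of GRCm38.p6, read 5′ to 3′ on the strand of the gene, from 250 bases before the start site to 50 bases after it. The *Itgb7* window is chr15:102231886-102232185 on the minus strand and the *Itgam* window is chr7:128062390-128062689 on the plus strand. Capitals mark matches on either strand to GAGGAA, a core of sites of the myeloid factor PU.1, and to ACANNTGT, the palindrome known for Iroquois proteins such as IRX3.
Itgb7: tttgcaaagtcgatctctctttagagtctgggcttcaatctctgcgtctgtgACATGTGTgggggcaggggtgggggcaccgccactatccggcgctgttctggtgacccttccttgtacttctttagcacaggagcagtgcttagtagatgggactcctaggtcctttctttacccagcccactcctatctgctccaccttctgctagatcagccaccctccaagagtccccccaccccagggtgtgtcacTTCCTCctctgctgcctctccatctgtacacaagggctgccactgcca
Itgam: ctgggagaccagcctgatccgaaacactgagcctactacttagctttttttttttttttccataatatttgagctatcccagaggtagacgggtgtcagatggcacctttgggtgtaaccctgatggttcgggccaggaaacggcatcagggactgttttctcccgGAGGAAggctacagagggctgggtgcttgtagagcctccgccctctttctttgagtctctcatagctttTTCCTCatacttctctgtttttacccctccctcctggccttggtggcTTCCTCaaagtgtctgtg
In the *Itgb7* window ACANNTGT matched once, as ACATGTGT, from base -198 to -191 before the start, and GAGGAA matched once on the strand opposite to the gene, at bases 3 to 8. The *Itgam* window held 3 matches to GAGGAA, at -84 to -79, -15 to -10 and 33 to 38, and 0 to ACANNTGT. The promoter table held 7 of the 10 chains (*Itga4*, *Itgam*, *Itgax*, *Itgb1*, *Itgb7*, *Itga5* and *Itgb2l*). GAGGAA was in 5 of these 7 and in 28.3% of 32851 promoters of the same length, and ACANNTGT was in 1 of 7 and in 7.38%. The 2 motifs did not overlap in these windows, and a match to letters is a description of the sequence, not evidence that a factor binds.

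The genes around *Itgb7* lay closer to 0. Within 250 kb on each side, 14 other protein-coding genes were tested, and their changes on log2(RPKM + 0.5) ran from -0.53 to 0.22, with a median of -0.16. Limma called 0 of them (lowest adjusted p = 0.0705, for *Csad*). At an unadjusted p under 0.05, 3 were lower (*Csad*, *Aaas* and *Zfp740*) and 0 higher, and voom and the study's criterion each called 1, *Csad*, lower. Over all tested genes, 16% were lower and 8.34% higher at that unadjusted p, while voom called 3.08% lower and the study's criterion 4.72%. *Csad* was low in both cohorts, with means of 0.571 ± 0.0625 (control) and 0.243 ± 0.0427 RPKM (IRX3; SD, n = 3 each). It passed the expression filter through the *Hoxa9*/MTV mice alone. *Zfp740* ends 389 bases past the 3′ end of *Itgb7* and stood at -0.47 (SE 0.15, adjusted p = 0.115 by limma), while *Rarg*, 2994 bases away on the other side, stood at -0.01 (SE 0.25, adjusted p = 0.987 by limma). These neighbours were chosen by position alone.

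**Figure D2:**
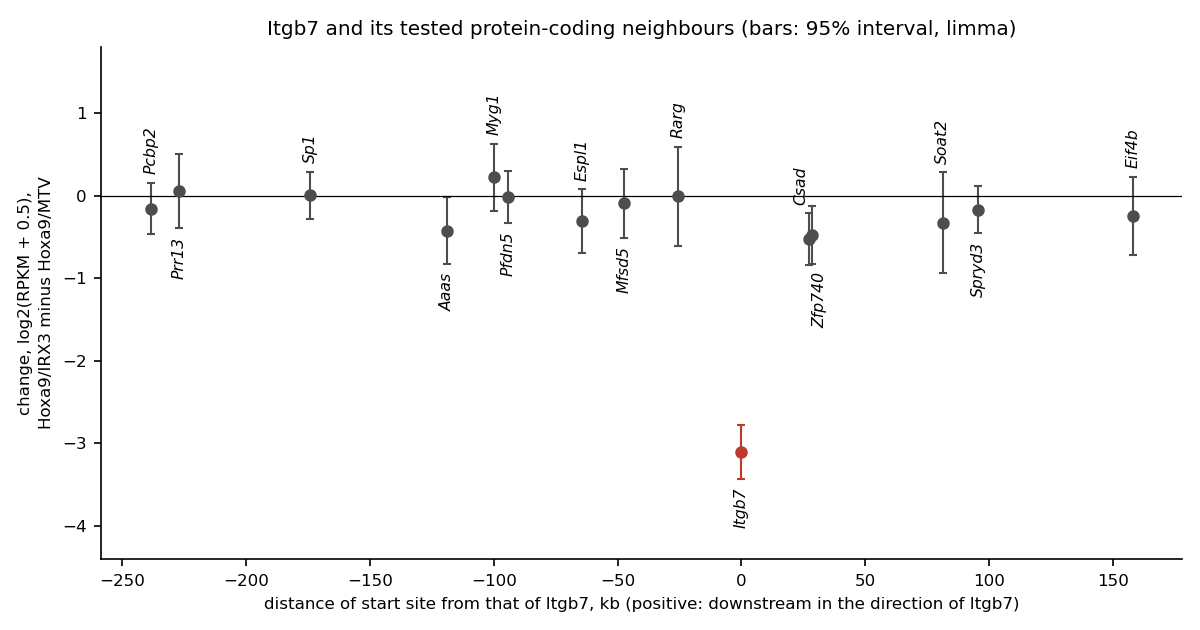
Change on log2(RPKM + 0.5), *Hoxa9*/IRX3 minus *Hoxa9*/MTV (y axis), of *Itgb7* (red) and its 14 tested protein-coding neighbours (gray) against the distance of their start sites from that of *Itgb7* in kb (x axis), with 95% intervals from limma over 3 mice per cohort. *Itgb7* stands at -3.10 and the neighbours between -0.53 and 0.22.

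The alpha chains that can pair with beta7 were not called. *Itga4* (ENSMUSG00000027009; chromosome 2, 79255426 to 79333123, plus strand), which encodes the alpha4 chain shared by beta1 and beta7, was at 7.89, 8.16 and 6.88 RPKM in mice 1.1, 1.2 and 1.4 and at 7.42, 2.52 and 4.16 RPKM in mice 3.2, 3.3 and 3.5. Mouse 3.2 lay within the *Hoxa9*/MTV range and mice 3.3 and 3.5 below it. The change was -0.76 (SE 0.33, adjusted p = 0.224 by limma), and without mouse 3.2 it was -1.11 (adjusted p = 0.0407), which would pass the threshold. *Itgae*, the alphaE chain (ENSMUSG00000005947; chromosome 11, 73090583 to 73147446, plus strand), was not tested. It had 3, 3 and 1 reads in *Hoxa9*/MTV mice 1.1, 1.2 and 1.4 and 10, 2 and 2 reads in *Hoxa9*/IRX3 mice 3.2, 3.3 and 3.5, at most 0.0198 RPKM. The gene overlaps *Gsg2* on the opposite strand, which had 264 to 441 reads, and whether reads were assigned by strand is not given in the sources used here.

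The beta1 chain was the one tested chain with a higher mean in *Hoxa9*/IRX3 cells beyond any overlap of the cohorts. *Itgb1* (ENSMUSG00000025809; chromosome 8, 128685654 to 128733200, plus strand) was at 5.40, 5.45 and 4.91 RPKM in mice 1.1, 1.2 and 1.4 and at 7.64, 6.74 and 6.33 RPKM in mice 3.2, 3.3 and 3.5. Every *Hoxa9*/IRX3 mouse lay above every *Hoxa9*/MTV mouse, with means of 6.90 ± 0.668 and 5.25 ± 0.297 RPKM (SD, n = 3 each). The difference did not pass the threshold after adjustment (0.36 on log2(RPKM + 0.5), SE 0.12, adjusted p = 0.140 by limma). *Itga5*, the alpha5 chain of the fibronectin receptor (ENSMUSG00000000555; chromosome 15, 103344286 to 103366763, minus strand), was at 2.77, 2.43 and 2.34 RPKM against 2.53, 1.84 and 1.79 RPKM, in the same order of mice. Mouse 3.2 again lay within the *Hoxa9*/MTV range, and the change was -0.25 (SE 0.14, adjusted p = 0.335 by limma). *Itga5* lies 1112342 bases from *Itgb7* on the same chromosome.

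Ratios of chains within a mouse remove the scale of the library, and most of the pairs were an alpha chain over a beta chain, while *Itgb7* to *Itgb1* and *Itgb2l* to *Itgb2* were pairs of beta chains. For 8 of the 9 pairs fixed for this comparison all values were above 0 and the log2 ratio was tested with an exact two-sided permutation test, in which 3 mice against 3 cannot go below p = 0.1. Of these, 6 pairs separated the cohorts and reached that smallest p (adjusted over the 8 pairs, 0.133). How often ratios of other genes separate the cohorts was not tested. The log2 ratio of *Itga4* to *Itgb1* was 0.55, 0.58 and 0.49 in mice 1.1, 1.2 and 1.4 and -0.04, -1.42 and -0.61 in mice 3.2, 3.3 and 3.5, so that the alpha4 chain was lower relative to beta1 in every *Hoxa9*/IRX3 mouse. The mean log2 ratio of *Itga5* to *Itgb1* was -1.07 ± 0.10 in the control and -1.76 ± 0.15 in the IRX3 cohort (SD, n = 3 each). For *Itgb7* to *Itgb1* the mean log2 ratio was -0.14 ± 0.28 in *Hoxa9*/MTV and -6.01 ± 0.77 in *Hoxa9*/IRX3 cells (SD, n = 3 each), and for *Itga4* to *Itgb7* it was 0.67 ± 0.32 and 5.32 ± 0.47. These 2 pairs and *Itgae* to *Itgb7* (a difference of 6.21, on few *Itgae* reads) repeat the low *Itgb7* values. The ratios to *Itgb1* share that chain, which by itself lay wholly higher in *Hoxa9*/IRX3 mice, so they are not independent results. The sixth pair, *Itgb2l* to *Itgb2*, differed by -3.05, with a log2 ratio of -9.07 in mouse 3.3 on 2 *Itgb2l* reads. Without that mouse the difference was -0.71, and with 0.5 RPKM added to both chains it was -1.11. *Itgal* to *Itgb2* differed by -1.24 (exact permutation test, p = 0.2, adjusted 0.229) and *Itgam* to *Itgb2* by -0.63 (exact permutation test, p = 1, adjusted 1), with overlap in both. Without mouse 3.3 the difference for *Itgam* to *Itgb2* was 0.30.

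**Figure D3:**
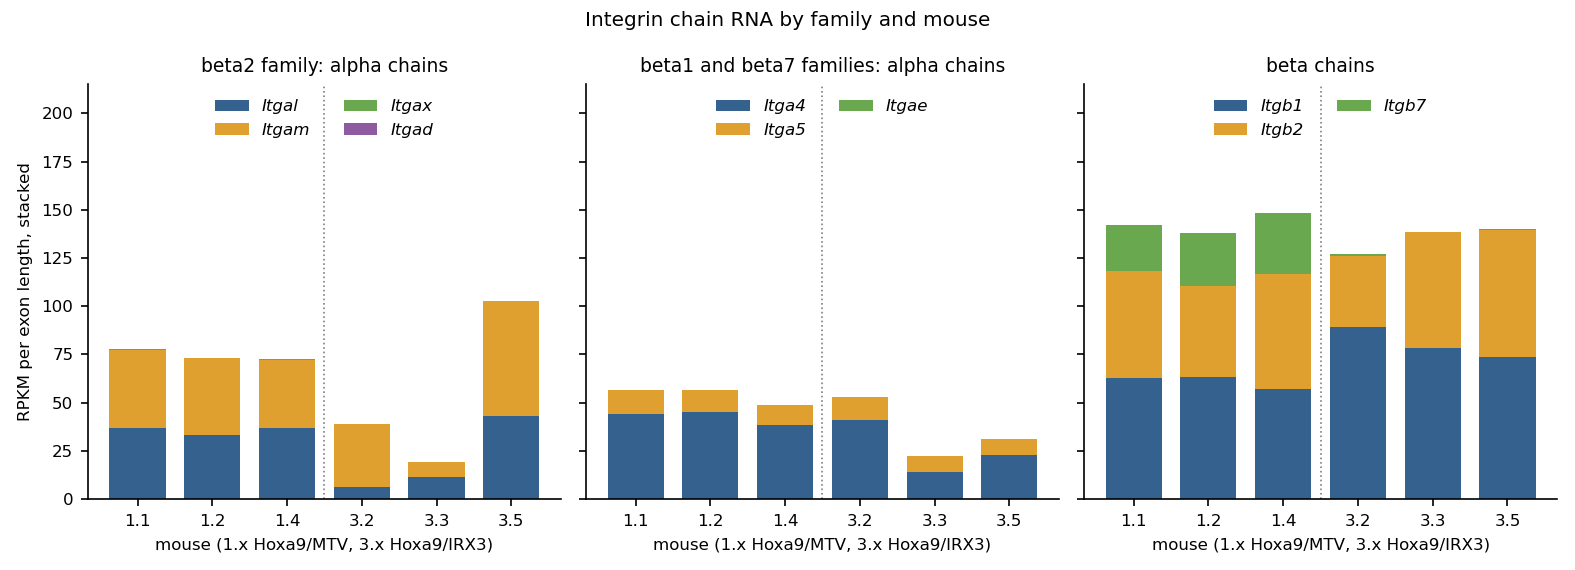
RPKM per length of annotated exons, stacked by chain (y axis), in each mouse (x axis, *Hoxa9*/MTV mice left and *Hoxa9*/IRX3 mice right of the dotted line), for the alpha chains of the beta2 family, the alpha chains of the beta1 and beta7 families, and the beta chains without *Itgb2l*. *Itgb7* makes up 23.7 to 31.6 in the *Hoxa9*/MTV columns and 0.332 to 0.860 in the *Hoxa9*/IRX3 columns, and *Itgb1* 57.2 to 63.5 and 73.8 to 89.0.

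Levels of different genes can be compared only per length of the spliced RNA, and the whole span of the chains was 4.40 to 12.4 times their exon length. On RPKM rescaled to exon length, *Itgb1* had the highest mean of the 10 chains in *Hoxa9*/MTV cells, at 61.2 ± 3.46, followed by *Itgb2* at 53.9 ± 6.33, *Itga4* at 42.5 ± 3.76, *Itgam* at 38.6 ± 2.92, *Itgal* at 35.5 ± 2.13, *Itgb7* at 27.7 ± 3.95, *Itga5* at 11.4 ± 1.05 and *Itgb2l* at 9.22 ± 1.90 (SD, n = 3 each). Of neighbours in this order, the mice overlapped for *Itgb1* and *Itgb2*, *Itga4* and *Itgam*, *Itgam* and *Itgal*, and *Itga5* and *Itgb2l*, and they did not for *Itgb2* and *Itga4*, nor for *Itgb7* and either chain beside it. *Itgax* and *Itgae* closed the order at 0.362 ± 0.270 and 0.0585 ± 0.0312. In *Hoxa9*/IRX3 cells *Itgb1* stood at 80.4 ± 7.78, and the order of means went on with *Itgb2* at 54.2 ± 15.1, *Itgam* at 33.1 ± 25.9, *Itga4* at 26.1 ± 13.9 and *Itgal* at 20.4 ± 19.9. The mice of these last 4 chains overlapped one another, with those of *Itgb2* between 37.1 and 65.7. *Itga5* was at 9.35 ± 1.89, *Itgb2l* at 3.66 ± 3.66 and *Itgb7* at 0.669 ± 0.293 on this scale, so *Itgb7* moved from among the well-expressed chains to just above *Itgae* at 0.115 ± 0.114 and *Itgax* at 0.0949 ± 0.142.

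Of the beta2 family, 0 of 4 tested chains were called by limma in either direction, by voom or by the study's criterion, and 1, *Itgb2l*, was lower at an unadjusted p under 0.05. By that rule 16% of all tested genes were lower. *Itgb2* (ENSMUSG00000000290; chromosome 10, 77530252 to 77565708, plus strand), the beta2 chain itself, was at 4.76, 4.04 and 5.11 RPKM in mice 1.1, 1.2 and 1.4 and at 3.20, 5.15 and 5.65 RPKM in mice 3.2, 3.3 and 3.5. The *Hoxa9*/IRX3 mice lay on both sides of the *Hoxa9*/MTV mice. The change of -0.02 (SE 0.21, 95% interval -0.53 to 0.49, adjusted p = 0.966 by limma) turned positive under other scalings, with 0.06 after median-of-ratios scaling and 0.08 after quantile normalization.

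The alphaL and alphaM chains differed widely between the *Hoxa9*/IRX3 mice themselves. *Itgal* (ENSMUSG00000030830; chromosome 7, 127296260 to 127335138, plus strand), the alphaL chain of LFA-1, was at 6.19, 5.58 and 6.21 RPKM in mice 1.1, 1.2 and 1.4 and at 1.09, 1.94 and 7.29 RPKM in mice 3.2, 3.3 and 3.5. Mice 3.2 and 3.3 were far below all *Hoxa9*/MTV mice and mouse 3.5 above them, a 6.70-fold range within the cohort against 1.11-fold among *Hoxa9*/MTV mice. The change was -1.06 (SE 0.54, adjusted p = 0.282 by limma), and without mouse 3.5 it was -1.72 (adjusted p = 0.0193), which would pass the threshold. *Itgam* (ENSMUSG00000030786; chromosome 7, 128062640 to 128118491, plus strand), the alphaM chain of Mac-1 that the study also followed by flow cytometry, had 3.64, 3.60 and 3.17 RPKM in the control mice, against 2.90, 0.690 and 5.34 RPKM in mice 3.2, 3.3 and 3.5. Here mouse 3.3 alone was far below and mouse 3.5 again above all *Hoxa9*/MTV mice. The change of -0.47 (SE 0.53, adjusted p = 0.622 by limma) turned to 0.17 (adjusted p = 0.692) without mouse 3.3.

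*Itgax* (ENSMUSG00000030789; chromosome 7, 128129547 to 128150657, plus strand), the alphaX chain known from dendritic cells, was not tested. Its RPKM were 0.118, 0.0114 and 0.118 in mice 1.1, 1.2 and 1.4, on 22, 2 and 24 reads, and 0.0588, 0 and 0.00594 in mice 3.2, 3.3 and 3.5, on 11, 0 and 1 reads. *Itgax* starts 11056 bases past the end of *Itgam* on the same strand and had an exon-length mean of 0.362 beside 38.6 for its neighbour in *Hoxa9*/MTV cells. *Itgb2l* (ENSMUSG00000000157; chromosome 16, 96422288 to 96443619, minus strand), a granulocyte protein related in sequence to the beta2 chain, was at 1.86, 2.26 and 1.49 RPKM in mice 1.1, 1.2 and 1.4 and at 0.725, 0.00956 and 1.49 RPKM in mice 3.2, 3.3 and 3.5. In reads these were 351, 400 and 307 against 137, 2 and 254. Mouse 3.5 reached the lowest *Hoxa9*/MTV mouse, so the cohorts overlapped narrowly, and mouse 3.3 was almost without *Itgb2l* RNA. The change was -1.13 (SE 0.47, adjusted p = 0.205 by limma).

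**Figure D4:**
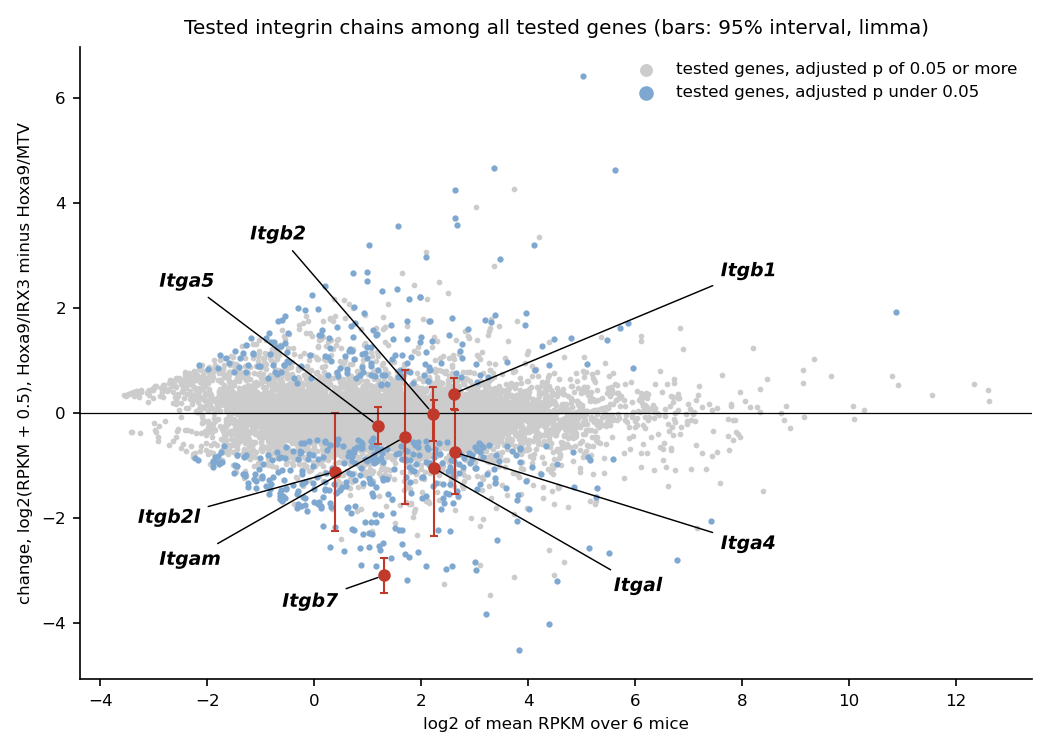
Change on log2(RPKM + 0.5), *Hoxa9*/IRX3 minus *Hoxa9*/MTV (y axis), against the log2 of the mean RPKM over 6 mice (x axis) for 9522 tested genes, with blue dots for those of an adjusted p under 0.05. The 8 tested integrin chains are red with 95% intervals from limma: *Itgb7* lies at -3.10, and the intervals of *Itgam*, *Itgal*, *Itgb2*, *Itga4* and *Itga5* cross 0.

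The share of each alpha chain in the alpha RNA of the beta2 family was nearly even in *Hoxa9*/MTV mice. On the exon-length scale *Itgal* held 47.2%, 45.2% and 50.5% of the sum of *Itgal*, *Itgam*, *Itgax* and *Itgad* in mice 1.1, 1.2 and 1.4, and *Itgam* 52.1%, 54.8% and 48.4%. In mice 3.2, 3.3 and 3.5 *Itgal* held 16.5%, 60.0% and 42.0%, and *Itgam* 82.7%, 40.0% and 57.8%. Mouse 3.2 was thus mostly *Itgam* and mouse 3.3 mostly *Itgal*, on either side of the *Hoxa9*/MTV mice (exact two-sided permutation test, p = 0.7 for each, adjusted over 4 chains 0.9). *Itgax* and *Itgad*, the alphaD gene 3719 bases further along, held at most 0.710% and 0.378% in any mouse. The sum of these alpha chains was 1.41, 1.56 and 1.23 times *Itgb2* in mice 1.1, 1.2 and 1.4 and 1.05, 0.320 and 1.57 times in mice 3.2, 3.3 and 3.5, so in mouse 3.3 the beta2 chain RNA exceeded that of its alpha partners.

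Across the 8 tested chains the median change was -0.61 on log2(RPKM + 0.5), beside -0.06 over all tested genes. The change was negative for 7 and positive for 1, *Itgb1*, and *Itgb2* joined *Itgb1* under median-of-ratios scaling and quantile normalization. The SD of log2(RPKM + 0.5) was larger in the *Hoxa9*/IRX3 than in the *Hoxa9*/MTV cohort for 7 of the 8, as it was for 76.03% of all tested genes. The exception was *Itgb7*, with an SD of 0.12 against 0.19, but the added 0.5 RPKM narrows the spread of values this low. On RPKM itself, the highest *Itgb7* value was 2.59 times the lowest in *Hoxa9*/IRX3 mice and 1.33 times in *Hoxa9*/MTV mice. For *Itgam* the SD was 1.17 against 0.10 and for *Itgal* 1.19 against 0.08, where the medians over all tested genes were 0.24 and 0.12.

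Of the ligands and counter-receptors of these integrins, 7 of 16 were tested, and limma called 2 lower and 2 higher, against the 3.52% and 1.84% of all tested genes given above. *Vcam1*, the vascular ligand of alpha4beta1, rose from 1.99, 3.21 and 2.98 RPKM in mice 1.1, 1.2 and 1.4 to 30.6, 15.6 and 49.3 RPKM in mice 3.2, 3.3 and 3.5 (change 3.20, SE 0.41, adjusted p = 0.0124 by limma). *Fn1*, which encodes fibronectin, the matrix ligand of alpha5beta1 and alpha4beta1, fell from 1.96, 3.56 and 3.16 RPKM to 0.095, 0.00151 and 0.00556 RPKM, in the same order of mice (change -2.64, SE 0.21, adjusted p = 0.00298 by limma). In the *Hoxa9*/IRX3 mice this rested on 57, 1 and 3 reads, and *Fn1*, like *Itgb7*, passed the expression filter through the *Hoxa9*/MTV mice alone. *C3*, the complement component whose fragment binds Mac-1, rose from 10.9 ± 2.12 to 27.2 ± 7.30 RPKM (SD, n = 3 each; change 1.27, adjusted p = 0.0360 by limma), and *Icam1*, a ligand of LFA-1 and Mac-1, fell from 1.51 ± 0.335 to 0.592 ± 0.203 RPKM (change -0.88, adjusted p = 0.0460 by limma). *Madcam1*, the ligand of alpha4beta7, was listed at 0 in all mice, as were *Jam2*, *Fga*, *Fgb*, *Fgg* and *Vtn*. With each mouse left out, *Fn1* held its call in 6 of 6 fits (adjusted p up to 0.0318) and *Vcam1* in 3, losing it without mouse 1.1, 1.2 or 1.4 (0.0635, 0.0655 and 0.0707). *C3* kept its call only without mouse 3.2 (0.0213, and 0.0586 to 0.153 without each of the others) and *Icam1* only without mouse 3.5 (0.0381, and 0.0712 to 0.169 without each of the others). Among the 12 alternative analyses with all mice, *Icam1* lost its call in 8 (adjusted p up to 0.0858) and *C3* in 2 (up to 0.0654), while *Fn1* and *Vcam1* kept theirs in each. With any *Hoxa9*/MTV mouse left out, limma called 37 to 46 genes lower in the whole table, against 335 with all mice.

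Of the 17 other integrin chains, 4 were tested and 3 (*Itga11*, *Itgb6* and *Itgb8*) were listed at 0 in all mice. Limma called 1 lower and 0 higher, and 3 were lower at an unadjusted p under 0.05 (*Itga1*, *Itga6* and *Itgb3*), while voom called 0 and the study's criterion 2 (*Itga1* and *Itga6*). Over all tested genes, limma called 3.52% lower, 16% were lower at the unadjusted p, and the study's criterion called 4.72% lower. *Itga1*, the collagen-binding partner of beta1, fell from 2.61, 2.23 and 1.91 RPKM to 0.187, 1.10 and 0.364 RPKM (change -1.48, SE 0.31, adjusted p = 0.0467 by limma). This call held only without mouse 3.3 (0.00997) when 1 mouse was left out (0.0613 to 0.168 without each of the others), and it was lost in 6 of 12 alternative analyses.

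Genes that switch integrins on or carry their signals were mostly not called. Over all tested genes, 16% were lower and 8.34% higher at an unadjusted p under 0.05. Voom called 3.08% lower and 1.89% higher, and the study's criterion 4.72% and 2.26%. Of 16 activators, 11 were tested and 0 called by limma, with 5 lower and 0 higher at an unadjusted p under 0.05 (*Cyth1*, *Fyb*, *Fermt3*, *Rassf5* and *Rapgef1*), and 1 called lower by voom (*Cyth1*) and by the study's criterion (*Rassf5*). *Tln1*, talin, which binds the beta tail to activate it, had means of 30.3 ± 1.96 and 27.1 ± 4.81 RPKM (adjusted p = 0.550 by limma), and *Fermt3*, the blood cell kindlin, 18.4 ± 0.858 and 14.7 ± 0.703 RPKM (adjusted p = 0.175 by limma; SD, n = 3 each). Of 14 cytoskeletal linkers, 10 were tested and 0 called by limma, with 3 lower (*Zyx*, *Coro1a* and *Tns1*) and 1 higher (*Actn4*) at an unadjusted p under 0.05, and *Tns1* called lower by voom and by the study's criterion. *Tns1* passed the expression filter through the *Hoxa9*/MTV mice alone. *Coro1a*, an actin regulator of leukocytes, had means of 68.0 ± 2.83 and 42.2 ± 18.5 RPKM (adjusted p = 0.184 by limma) and *Zyx*, zyxin, 29.2 ± 3.35 and 17.7 ± 4.51 RPKM (adjusted p = 0.105 by limma; SD, n = 3 each). The higher mean of each stood in *Hoxa9*/MTV cells.

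In each of 3 further groups limma called 1 gene lower and 0 higher, where 3.52% of all tested genes were called lower and 1.84% higher. Among 10 inhibitors of integrins, 7 were tested and *Dok3*, an adaptor of a family that competes with talin, fell from 62.9 ± 9.73 to 33.5 ± 1.71 RPKM (SD, n = 3 each; change -0.89, adjusted p = 0.0317 by limma). Among 14 kinases and adaptors of outside-in signaling, 10 were tested and *Fcer1g*, the Fc receptor gamma chain through which beta2 integrins signal in neutrophils, fell from 42.3, 41.3 and 43.2 RPKM to 18.6, 14.1 and 14.2 RPKM (change -1.42, SE 0.15, adjusted p = 0.00843 by limma). Among 13 selectins, their ligands and tetraspanins, 12 were tested and *Cd44*, the hyaluronan receptor, fell from 5.92 ± 0.275 to 2.30 ± 0.705 RPKM (SD, n = 3 each; change -1.23, adjusted p = 0.0214 by limma). At an unadjusted p under 0.05, the first group had 3 lower genes (*Sharpin*, *Dok3* and *Sipa1*), the second 3 (*Tyrobp*, *Lyn* and *Fcer1g*) and the third 5 (*Cd44*, *Cd82*, *Cd37*, *Cd53* and *Selplg*), with 0, 0 and 2 higher (*Cd63* and *Cd151*). By that rule 16% of all tested genes were lower and 8.34% higher. Voom called 1 gene lower in each group (*Dok3*, *Fcer1g* and *Cd44*), and the study's criterion 0, 1 and 2 lower, while both called 0 higher. Over all tested genes voom called 3.08% lower and the study's criterion 4.72%. Leaving out mouse 1.1, 1.2 or 1.4 ended all 3 calls, with adjusted p from 0.0534 to 0.136, and leaving out mouse 3.5 ended those of *Dok3* (0.0566) and *Cd44* (0.0513). That of *Dok3* was also lost with genes of all types (0.0505) and by the study's criterion, where its ratio of means did not pass 2.

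**Figure D5:**
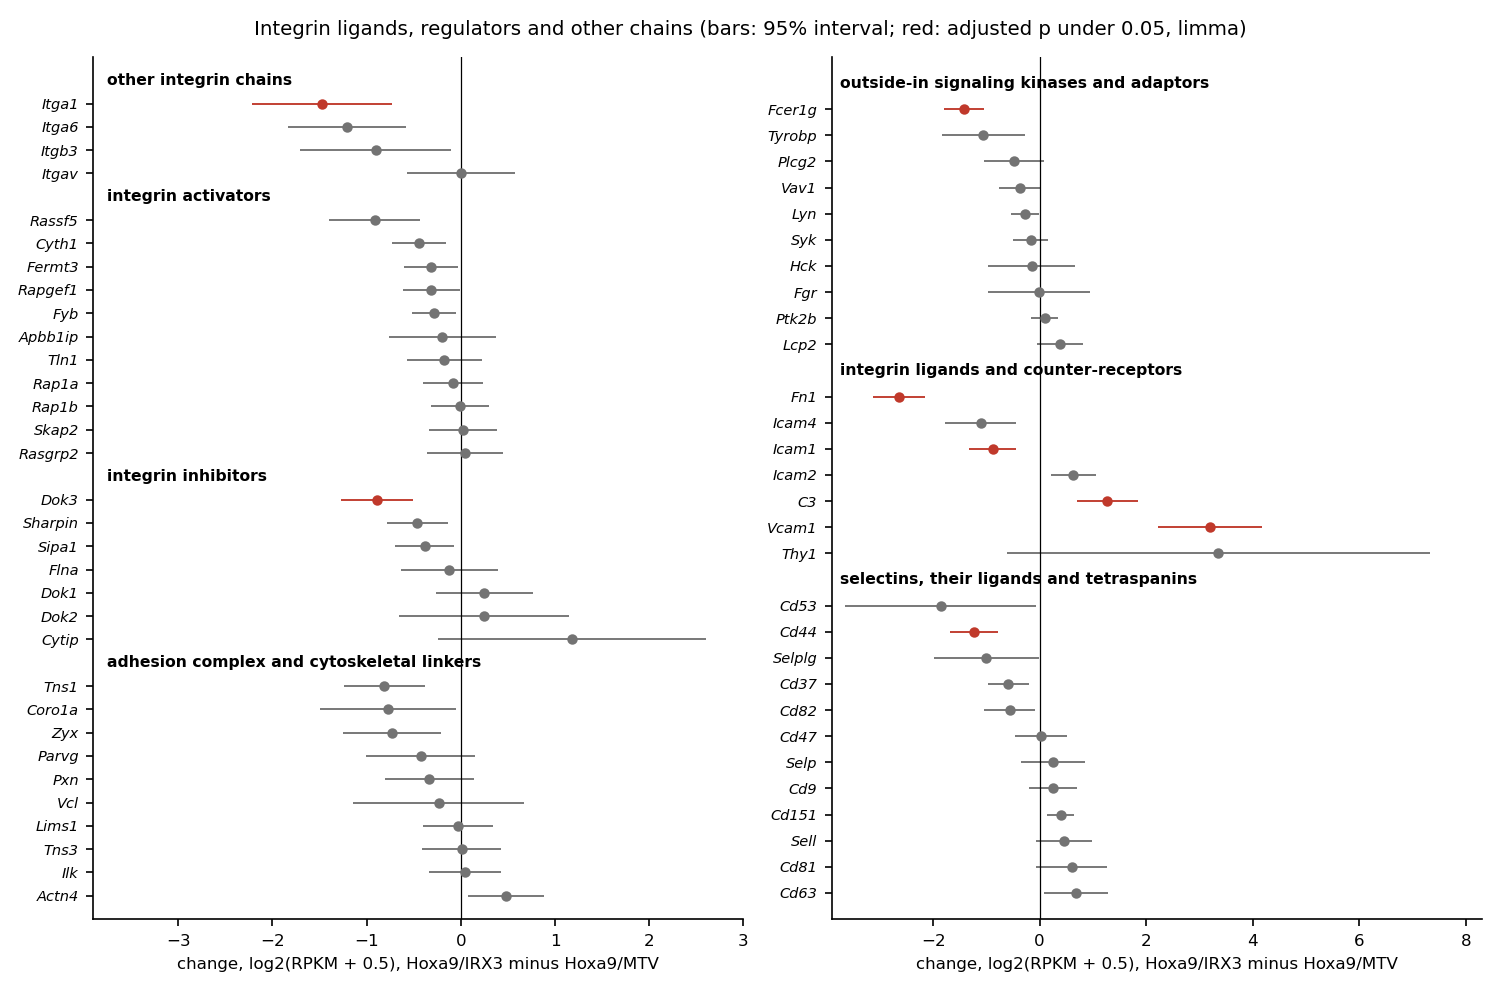
Change on log2(RPKM + 0.5), *Hoxa9*/IRX3 minus *Hoxa9*/MTV (x axis), with its 95% interval from limma over 3 mice per cohort, for each tested gene of the lists of other integrin chains, regulators, linkers, signaling genes, ligands and other adhesion genes (y axis), in red where the adjusted p was under 0.05. *Vcam1* at 3.20 and *Fn1* at -2.64 stand farthest from 0 among the red points.

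Markers of other blood cells were read beside the integrins, and their part in the integrin values was not tested. Over all tested genes, limma called 3.52% lower and 1.84% higher. At an unadjusted p under 0.05, 16% were lower and 8.34% higher, and without overlap of the cohorts 21.6% were lower and 12.2% higher. The summed RPKM of 5 granulocyte precursor genes was 1630 to 2409 in *Hoxa9*/MTV and 4210 to 5733 in *Hoxa9*/IRX3 mice, with 1 called higher (*Elane*). That of 12 neutrophil genes was 1518 to 2232 and 1193 to 3407, with 2 called higher (*Ly6g* and *Retnlg*). Its lowest value was in mouse 3.3 and its highest in mouse 3.5, the same mice in which *Itgam* was lowest and highest. *Ngp* and *S100a8* made up most of this sum, and not all genes of the list followed it. *Lcn2* and *Csf3r* had their highest values of all mice in mouse 3.3, at 85.0 and 12.9 RPKM. For 10 monocyte and macrophage genes the sums were 532 to 613 and 490 to 873, of which *Ly6c2* made up most, with 2 of 7 tested called lower (*Ccr2*, from 22.4 ± 3.81 to 5.05 ± 1.39 RPKM, and *Cd68*, from 78.4 ± 9.81 to 12.7 ± 5.80 RPKM; SD, n = 3 each). For 9 dendritic cell genes they were 3.97 to 5.99 and 0.173 to 5.99, with 1 of 4 tested called lower (*Flt3*). Lower sums beyond any overlap, as for *Itgb7*, were found for 6 B cell genes, at 6.26 to 7.13 and 0.276 to 2.31, with 1 of 1 tested called lower (*Cd79b*, which made up most of the sum, while *Cd79a* had means of 0.0911 and 0.128 RPKM) and *Pax5* and *Ms4a1* at 0, and for 7 mast cell and basophil genes, at 16.1 to 21.8 and 4.80 to 8.02, with 2 of 5 tested called lower (*Gata2* and *Cpa3*) and *Fcer1a* at 0. *Ms4a2* of the mast cell list was higher at an unadjusted p under 0.05 and by the study's criterion, with means of 0.370 and 0.877 RPKM. Voom called 0 genes of the mast cell list and 0 of the neutrophil list. *Flt3* and *Cpa3* passed the expression filter through the *Hoxa9*/MTV mice alone, and *Ly6g* through the *Hoxa9*/IRX3 mice alone. In the alternative analyses with all mice *Cd79b* lost its call in 5 of 12, *Cpa3* in 5 of 11, *Retnlg* in 4 of 12, and *Gata2* (12), *Elane* (12) and *Ly6g* (11) in 1 each. Limma called 0 of the T and NK cell list (22.6 to 33.0 and 14.9 to 482, with *Cd3d*, *Trbc2*, *Ncr1* and *Gzma* at 0 and *Nkg7* the 1 tested gene), 0 of the eosinophil list (9.96 to 13.4 and 0.212 to 12.9, with *Epx*, *Il5ra* and *Ear1* at 0) and 0 of the megakaryocyte list (6.20 to 7.64 and 2.41 to 14.5, with *Ppbp* at 0). In these lists 1 gene, *Itgb3*, was lower at an unadjusted p under 0.05, and voom and the study's criterion called 0. No gene of the erythroid list or of the marrow stroma and endothelium list was tested, with sums of at most 0.303 and 0.475 RPKM in any mouse. Leaving out mouse 1.1 or 1.4 ended each of the 9 marker calls (adjusted p from 0.0530 to 0.157), and leaving out another mouse ended some of them.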

How the data were processed

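RNA of KIT+Gr1+ leukemia cells from 6 mice was sequenced by the authors as strand-specific polyA libraries. Per the labels and the study's methods, the authors aligned reads to GRCm38 with Bowtie2 2.2.1, filtered alignments with SAMtools 0.1.19, assigned reads to Ensembl genes and deposited the resulting RPKM, 1 column a mouse. Counts were not among the values used. Reads were recovered from the steps between low values and were whole within 0.01 of a read in all libraries for 65.0% of tested genes, so those of *Itgam*, *Itga5*, *Itgal* and *Itgb7*, whole in 0, 0, 1 and 1 of the libraries, are approximate. GENCODE gave gene types, spans and exon lengths, and 874 genes had no entry. Protein-coding genes above 0.5 RPKM in at least 1 mouse were tested with limma 3.58.1 in R 4.3.3 (log2(RPKM + 0.5), variance trend), after a check on simulated data. Ratios and shares were tested by exact permutation in scipy 1.17.1. The numbers of the mice pair no samples across cohorts. Each test took the mouse as the replicate, and the variances of limma also draw on all tested genes. Whether the mice of a cohort received cells of the same transduction is not given in the sources used here.

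The members, lists and tests were chosen with earlier results of these data known. All 10 chains are named, and from each other list the genes past the threshold, up to 6, or, where none passed, the 2 with the highest mean. Other genes named beside counts were chosen after their values were seen. *Adgre1* and *Siglecf* were matched by gene ID. The alternatives were other pseudocounts (0.1 and 1), filters, gene types, scalings, exon length, limma without the trend or with sample weights, voom on recovered reads, the study's criterion, and leaving out each mouse.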

Additional observations from a re-analysis of the deposited data

How the results depend on the processing

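Under the 12 alternative analyses with all mice, 1 integrin chain was called lower, *Itgb7*, and 0 higher in each, and the change of *Itgb7* lay between -5.46 and -2.37. With 1 mouse left out in turn, the number of chains called lower ranged from 1 to 2, with *Itga4* added without mouse 3.2 and *Itgal* added without mouse 3.5, and 0 were called higher. The change of *Itgb2* turned positive after median-of-ratios scaling (0.0619), after quantile normalization (0.0791) and by the study's ratio of means (0.00926), and ranged from -0.16 to 0.20 with 1 mouse left out, positive without mouse 1.4 (0.0467) or 3.2. That of *Itgam* ranged from -0.98 to 0.17, that of *Ear2*, an eosinophil gene, from -0.037 to 0.70, and that of *Gp1bb*, a platelet gene, from -0.31 to 0.99 with 1 mouse left out. None of these 4 genes was called. The cause was not tested. The 8 ratios of chains and the 4 shares of alpha chains kept their direction on the other scale tried. With 1 mouse left out, the difference in the log2 ratio of *Itgam* to *Itgb2* turned positive without mouse 3.3 (0.304). Without mouse 3.2 the difference in the *Itgal* share turned from -8.12 to 3.37 percentage points and that in the *Itgam* share from 8.41 to -2.88, and the *Itgad* share, with a difference of -0.0433, was at 0.0773 without mouse 1.4 and at 0.00347 without mouse 3.3. The other 7 ratios and the *Itgax* share kept their direction. No paired analysis was possible because the cohorts share no mouse numbers. Depth limits *Itgax* and *Itgae*, with at most 24 and 10 reads in any mouse, and the *Hoxa9*/IRX3 level of *Itgb7*, with 9 to 20 reads. Differences between 3 and 3 mice are also limited by the spread among the *Hoxa9*/IRX3 mice.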

Other observations

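Some genes of the adhesion lists that limma did not call had values that set single mice or whole cohorts apart, and they were chosen here after their values were seen. *Thy1*, a counter-receptor of Mac-1, was at 0.0871, 0.0695 and 0.0796 RPKM in mice 1.1, 1.2 and 1.4 and at 0.391, 1.65 and 108 RPKM in mice 3.2, 3.3 and 3.5, on 18, 84 and 4467 reads in the last 3. Mouse 3.5, which had the highest *Itgam*, *Itgal* and *Itgb2* RNA of the 6, also had the highest *Thy1* (change 3.35, SE 1.66, adjusted p = 0.266 by limma). *Itga6*, the laminin-binding alpha6 chain, was at 1.68, 1.68 and 1.60 RPKM against 0.855, 0.142 and 0.429 RPKM (change -1.21, SE 0.26, adjusted p = 0.0506 by limma), so that the cohorts did not overlap and the threshold was missed narrowly. *Rassf5*, a Rap1 effector that activates LFA-1, was at 3.82, 4.28 and 4.55 RPKM against 2.42, 1.35 and 2.41 RPKM (change -0.91, SE 0.20, adjusted p = 0.0537 by limma). Among the ICAM genes, *Icam4* was at 1.27, 1.77 and 1.25 RPKM against 0.0974, 0.440 and 0.757 RPKM (adjusted p = 0.0731 by limma), and *Icam2* at 4.25, 2.88 and 3.06 RPKM against 4.88, 6.33 and 5.28 RPKM (adjusted p = 0.0872 by limma), with neither pair of cohorts overlapping and the order of the cohorts opposite. The *Icam4* values rest on 14, 18 and 15 reads against 1, 5 and 7. Without overlap of the cohorts, 21.6% of all tested genes were lower and 12.2% higher. *Tyrobp*, the other adaptor of beta2 integrin signaling beside *Fcer1g*, was at 18.1, 21.3 and 18.8 RPKM against 13.8, 5.25 and 10.1 RPKM (change -1.06, SE 0.33, adjusted p = 0.114 by limma).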
